A study of Arabidopsis thaliana with 6 samples.

Results

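The dehydrin and cold-regulated (COR) genes examined here are 10 Arabidopsis thaliana genes of the cold and drought response: the dehydrins ERD14 (AT1G76180), ERD10 (AT1G20450), COR47 (AT1G20440) and RAB18 (AT5G66400), and COR15A (AT2G42540), COR15B (AT2G42530), KIN1 (AT5G15960), KIN2 (AT5G15970), RD29A (AT5G52310) and RD29B (AT5G52300). They were chosen by name, with results of these data known, out of 37899 annotated nuclear genes, and their peaks are the lines of 4 deposited peak lists that the authors' annotation assigned to them. The study title asks about CND1 in the stability of the nuclear and chloroplast genomes. Seedling chromatin, fixed with formaldehyde, was precipitated with an antibody against the FLAG tag from plants of the genotypes pCND1-Flag/cnd1-3, the cnd1-3 line carrying a FLAG-tagged CND1 (CND1-FLAG below), and Col-0, the untagged wild type. Each genotype has 2 ChIP libraries and 1 input. The Col-0 libraries hold no tag, so their peaks show what the antibody and chromatin give without it. Besides the tag, the genotypes differ by the cnd1-3 allele and by the transgene. Whether pCND1 names its promoter, and how many lines were used, the labels do not say. No seedling age and no cold or drought treatment is named there either. Nothing tells whether the libraries sharing a genotype are from different plants, so their spread may be technical.

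Dehydrins are unfolded, highly hydrophilic proteins that build up when plant cells lose water through cold, drought or salt, and they protect membranes and other proteins. Most COR genes are switched on in the cold by the CBF transcription factors, which bind the C-repeat element in their promoters, while abscisic acid acts on some of them through ABRE elements. Several lie as tandem copies, which holds for ERD10 with COR47, COR15A with COR15B, KIN1 with KIN2 and RD29A with RD29B.

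MACS2 had called 13044 and 10538 peaks in CND1-FLAG replicates 1 and 2, compared with 6152 and 5722 in the 2 Col-0 replicates. The fold enrichment deposited by the authors is the ChIP signal at a summit over the local background. ChIP depth was estimated from the lowest background in a list, solved from fold and p-value. That background was divided by the factor that scaled the ChIP and by the smallest peak width. The estimate takes the lowest background as the level of the whole genome and the smallest width as the fragment length. It came to 84.6 and 76.0 fragments per kb in CND1-FLAG replicates 1 and 2 and 158 and 155 in Col-0 replicates 1 and 2. By this estimate the Col-0 libraries were the deeper ones. Fold values of the genotypes thus rest on depths that differ by this estimate. The 2 folds of a genotype may also share the background of its 1 input, so their spread may leave out the error of that input. They are given as a description with no test, since the genes were chosen with results known.

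Peaks at these genes were already present without the tag. In each Col-0 list 7 of the 10 genes had an assigned peak, where 13.7% and 12.9% of all nuclear genes had one in replicates 1 and 2. In each CND1-FLAG list 6 had one, where 25.9% and 21.9% of all nuclear genes did. The nuclear genes counted here and below include genes that encode no protein, so shares among protein-coding genes may differ. Both Col-0 lists held peaks of 7 genes, against 8.99% of all nuclear genes, and both CND1-FLAG lists held peaks of 5, against 18.3%. COR47, COR15A and RD29B had no assigned line in any list. A region here is a set of peaks of the 4 lists that overlap by at least 1 bp, with the highest fold of each list. ERD14, ERD10, KIN1, KIN2, RD29A and COR15B, 6 genes in all, had a region with peaks of all 4 lists, against 6.40% of nuclear genes. COR15B was the 1 gene with a region in both CND1-FLAG lists and no Col-0 list, which 9.74% of nuclear genes had.

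Some strong peaks inside these genes carry the name of a neighbour in the lists. By the TAIR10.1 gene table, a strong peak has its summits inside COR47, but all 4 lists assign it to the neighbour AT1G20430. At ERD14, CND1-FLAG replicate 1 has 1 long peak that runs from AT1G76170 through ERD14 and is assigned to AT1G76170. Counting genes with a summit inside them, an alternative chosen after seeing this, gave 7 of 10 genes in both CND1-FLAG lists, against 19.0% of nuclear genes, and 7 in both Col-0 lists, against 9.01%. In single lists it gave 8 genes in CND1-FLAG replicates 1 and 2, against 27.2% and 22.8% of nuclear genes, and 7 in Col-0 replicates 1 and 2, against 14.0% and 13.1%. A region of all 4 lists was then found at 7 genes, against 6.30%, and one of the CND1-FLAG lists alone at 1, against 9.70%. COR15A had no summit inside it in any list.

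**Figure D1:**
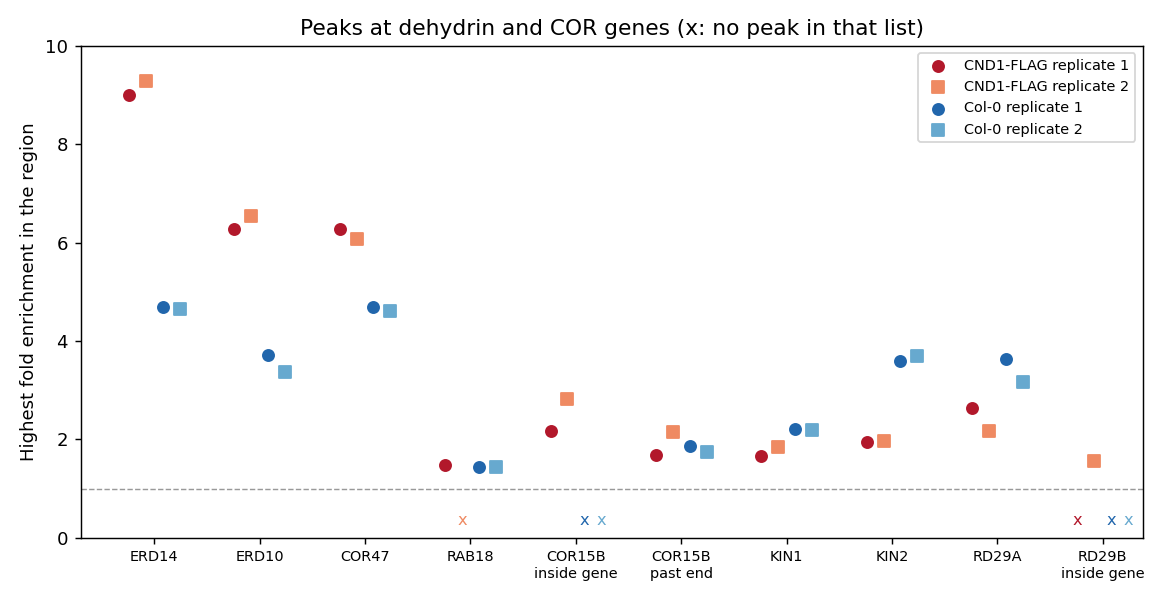
Highest fold enrichment (vertical axis, no unit) of each region at the named genes in the 4 ChIP libraries; points are single libraries, a cross marks a list without a peak, and the dashed line is a fold of 1. ERD14, ERD10 and COR47 lie higher in both CND1-FLAG libraries, while KIN1, KIN2 and RD29A lie higher in both Col-0 libraries.

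ERD14 and COR47 had the highest folds of these genes in both Col-0 lists, and with ERD10 these acidic dehydrins had the highest in both CND1-FLAG lists. In Col-0 replicate 2, KIN2 stood above ERD10. At ERD14, an early-dehydration dehydrin with chaperone activity (chromosome 1, gene at 28586663 to 28587927 on the minus strand, TAIR10), the fold was 9.004 and 9.28 in CND1-FLAG replicates 1 and 2 and 4.69 and 4.65 in Col-0 replicates 1 and 2. The means were 9.14 ± 0.198 and 4.67 ± 0.0318 (SD, n = 2 each). Both CND1-FLAG folds were above both Col-0 folds, as in 67.8% of all regions with peaks in all 4 lists. By fold, ERD14 ranked 5 in both tagged libraries and 9 and 10 in the untagged ones, out of 2426 nuclear regions with peaks in all 4 lists. The summit rested on 362 fragments (95% exact Poisson interval 326 to 401) and 336 (301.03 to 374) in the CND1-FLAG libraries. In Col-0 it rested on 427 (387 to 469) and 420.0 (381 to 462). Such intervals cover counting error only.

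ERD10, a close relative of ERD14 induced by dehydration and cold (chromosome 1, 7087903 to 7089606, minus strand), had a fold of 6.28 and 6.54 in the CND1-FLAG libraries and of 3.72 and 3.36 in the Col-0 libraries. The means were 6.41 ± 0.181 and 3.54 ± 0.251 (SD, n = 2 each). Both CND1-FLAG values were above both Col-0 values, as in 67.8% of all regions with peaks in all 4 lists. The peak had a pair of summits in each of the 4 lists, the first 669 to 689 bp and the second 1156 to 1185 bp after the gene start. At the first of these sites the fold was 5.65 and 6.07 with the tag and 3.05 and 2.94 without it, so both summits were higher in the tagged plants.

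COR47, the third acidic dehydrin and the tandem neighbour of ERD10, had 6.27 and 6.08 in CND1-FLAG and 4.69 and 4.62 in Col-0 (region on chromosome 1, 7084504 to 7085904, TAIR10). Both tagged values were again above both untagged ones, an order that 67.8% of the 2426 regions had. The means were 6.18 ± 0.135 and 4.65 ± 0.0501 (SD, n = 2 each). Its ratio of 1.33 was the smallest of the 3 acidic dehydrins, beside 1.81 at ERD10 and 1.96 at ERD14. Among all 2426 regions the COR47 ratio ranked 756 from the highest, where the median was 1.20. By fold, COR47 was number 10 and 12 of the 2426 regions in Col-0, and number 45 and 49 in CND1-FLAG.

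RAB18, a dehydrin induced by abscisic acid (chromosome 5, 26518277 to 26519242, minus strand), stood near the lower end of the lists. Its fold was 1.47 in CND1-FLAG replicate 1 and 1.43 and 1.44 in the Col-0 libraries, with no peak in CND1-FLAG replicate 2. The −log10 q was 2.38, 2.31 and 2.43 in the same order, against a smallest value of 1.30 in the lists. RAB18 overlaps AT5G66410 in the gene table, although its 3 summits lie in RAB18 alone. A peak of this size lies close to the calling limit, so its absence from 1 list does not show a lower signal there.

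The COR15 proteins are small proteins of the chloroplast stroma that protect membranes in freezing. COR15B (chromosome 2, 17708593 to 17710433, minus strand) had a weak region inside the gene that was called in the tagged plants alone, at 17709480 to 17709945, with a fold of 2.18 and 2.83 in CND1-FLAG replicates 1 and 2. It rested on 72 fragments (95% exact Poisson interval 56.3 to 90.7) and 73 (57.2 to 91.8). Its −log10 q of 7.28 and 12.2 was well above the calling limit in both, and Col-0 signal there was not measured. The region at 17708243 to 17708805 had a fold of 1.68 and 2.15 with the tag and 1.86 and 1.74 without it, which overlap. Its summits lay 1819 to 1964 bp after the COR15B start in a gene of 1841 bp, and all 4 of them lay in the neighbouring AT2G42520, by the gene table a gene that overlaps the COR15B end.

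KIN1 and KIN2 encode small, hydrophilic stress proteins, and KIN2 is also known as COR6.6. Unlike the acidic dehydrins, both had the higher fold in the untagged plants. At KIN2 (chromosome 5, 5211719 to 5212743, plus strand) the fold was 1.96 and 1.97 in CND1-FLAG replicates 1 and 2 and 3.60 and 3.70 in Col-0 replicates 1 and 2. The means of 1.96 ± 0.0114 and 3.65 ± 0.0681 (SD, n = 2 each) gave a ratio of 0.538, the lowest among all 2426 regions with peaks in all 4 lists. The summit held 128 fragments (95% exact Poisson interval 107 to 152) and 119 (98.6 to 142) with the tag. In the Col-0 libraries, the deeper ones by the estimate above, it held 328 (293 to 365) and 344 (309 to 382).

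KIN1 (chromosome 5, 5209717 to 5210826, plus strand) had 1.67 and 1.85 in CND1-FLAG and 2.21 and 2.19 in Col-0. Its ratio was 0.801 and ranked 40 from the lowest. Both Col-0 values were again above both tagged ones, an order that 6.60% of the 2426 regions had. KIN1 and KIN2, like COR15A and COR15B, are similar tandem copies. The sources used here do not say how reads that fit both copies were placed, so values within each pair may be mixed.

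RD29A, a hydrophilic protein whose promoter is a standard reporter of cold and drought (chromosome 5, 21240717 to 21243644, plus strand), carried a wide region of 2653 bp. The highest fold was 2.64 and 2.16 in CND1-FLAG replicates 1 and 2 and 3.64 and 3.16 in Col-0, means of 2.40 ± 0.332 and 3.40 ± 0.341 (SD, n = 2 each). Both untagged values were above both tagged ones, as in 6.60% of all regions with peaks in all 4 lists. The ratio of 0.706 ranked 12 from the lowest of 2426. Summits within 200 bp of each other were joined to sites, and 3 sites in the gene had summits in all 4 lists. At the first, 825 to 934 bp after the gene start, the fold was 1.98 and 1.50 with the tag and 3.18 and 3.16 without it. At the second, 1694 to 1754 bp after the start, it was 2.20 and 2.08 against 2.70 and 2.76. At the third, 2359 to 2455 bp after the start, it was 2.64 and 2.09 against 3.64 and 3.16. The tagged values were the lower ones at each site, with ratios of 0.549, 0.783 and 0.695.

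RD29B, the neighbour that responds mainly to abscisic acid, had a single weak summit inside it, in CND1-FLAG replicate 2 alone. Its fold was 1.56 and its −log10 q 2.66, at 21239050 to 21239429 on chromosome 5. The list assigns this peak to RD29A, at −1288 bp from the RD29A start. RD29A and RD29B thus differed in these lists although they are tandem copies: RD29A had peaks over 69.9% to 90.6% of its length in every list.

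**Figure D2:**
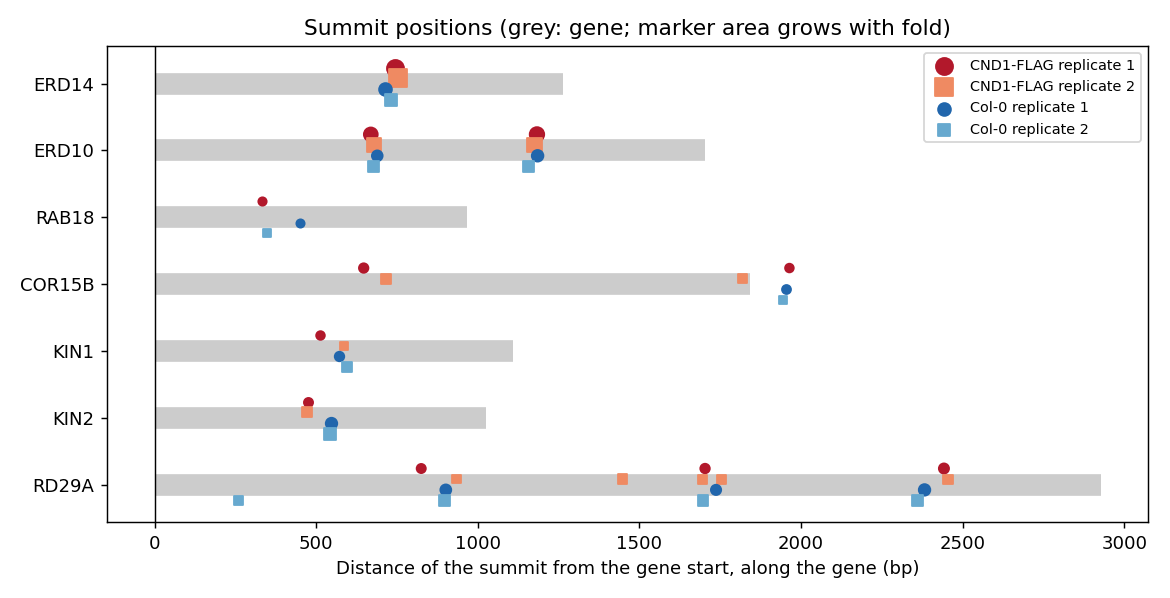
Position of each summit along the gene in bp from the gene start (horizontal axis) for the 7 genes that the lists assign peaks to; grey bars are the genes, colours and shapes the 4 libraries, and marker area grows with fold enrichment. Most summits of the 4 libraries fall at like positions inside the genes, 712 to 752 bp from the start at ERD14 and at 2 sites in ERD10, and the peak assigned to RD29A that lies in RD29B is not drawn.

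Most summits at these genes lay within the gene and not before its start. The exceptions were 3 of the 4 summits past the COR15B end and the summit in RD29B that is assigned to RD29A. The lists label them promoter because that class takes in everything up to 3 kb from a start site. Of the 6 regions with peaks in all 4 lists and an assignment to one of the genes, 6 had their strongest CND1-FLAG summit inside the assigned gene, against 70.1% of all 2426 such regions; for the region past COR15B that summit lies in AT2G42520 too. At ERD14 the summits of the 4 libraries lay within 40 bp of each other, 712 to 752 bp after the start of a gene of 1265 bp. At KIN2 they lay 472 to 547 bp after the start of a gene of 1025 bp, and at KIN1 511 to 595 bp after the start of one of 1110 bp. The share of a gene covered by peaks differed between the genes. ERD14 was covered by peaks over 81.2% to 100% of its length and KIN2 over 58.1% to 81.0%, with the wider coverage of KIN2 in Col-0. The median over 2273 genes with a region in all 4 lists was 30.3% to 39.3%. COR15B was below the median in every list, with 22.9% and 34.4% in CND1-FLAG and 9.29% and 7.98% in Col-0. KIN1 was covered over 41.0% and 34.7% in CND1-FLAG, close to the medians of 39.3% and 36.7% there, and over 56.6% and 60.8% in Col-0.

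The 6 regions therefore fell on both sides of the other regions in the comparison of genotypes. Across all 2426 regions the median ratio of mean CND1-FLAG fold to mean Col-0 fold was 1.20, with 1% of regions below 0.767 and 1% above 2.72. KIN2, RD29A and KIN1 had both Col-0 values above both CND1-FLAG values, 3 of 6 regions against 6.60% of all regions. ERD14 and ERD10 had both CND1-FLAG values above both Col-0 values, 2 of 6 against 67.8%, and COR47, by position, was another of this kind. The ratio of ERD14 ranked 100 from the highest and that of ERD10 168, so larger ratios were found at many other genes. These ratios are those the genes were chosen with, and nothing is read from the counts. The median over the 6 regions was 0.932, and 1.06 with COR47. It lies between regions that differ in direction.

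**Figure D3:**
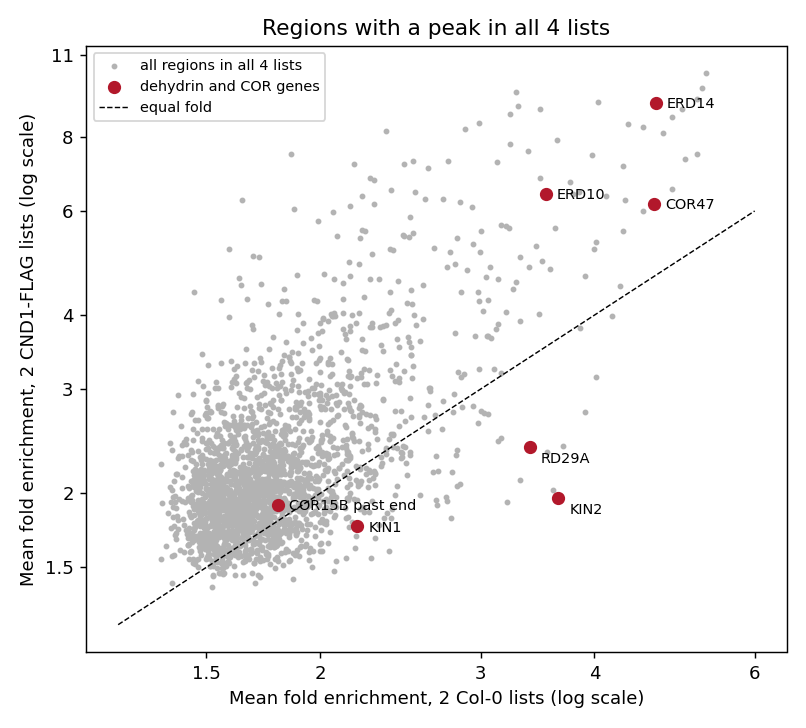
Mean fold enrichment of the 2 CND1-FLAG lists (vertical axis) against that of the 2 Col-0 lists (horizontal axis), both on a log scale, for 2426 regions with peaks in all 4 lists (grey) and those at the named genes (red); the dashed line marks equal fold. ERD14, ERD10 and COR47 lie above the line, and KIN2, RD29A and KIN1 below it, with KIN2 at the lowest ratio of all, 0.538.

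The same ratios can be set beside those of regions with a high Col-0 fold, whatever their CND1-FLAG fold, where KIN1 and the region past COR15B drop out. This cut uses the Col-0 fold, by which the ratio is divided, so the ranks are a description. Among 80 regions with a mean Col-0 fold of at least 3, the median ratio was 1.41. KIN2 had the lowest ratio of all regions, so it was bound to be the lowest here. RD29A was the 8 from the lowest, while ERD14 ranked 10 and ERD10 18 from the highest. COR47 ranked 48 from the highest, its ratio of 1.33 being below that median.

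The fold sets a ChIP pile-up against a local background, and both can differ between genotypes. Each was therefore also divided by the lowest background in its list, a measure chosen after seeing the data. On this scale the ERD14 pile-up was 13.1 and 13.4 in CND1-FLAG and 7.70 and 7.59 in Col-0, and its background was 1.42 and 1.403 against 1.62 and 1.61. The pile-up ratio of 1.73 compares with a median of 1.27 over the 2426 regions. The KIN2 pile-up was 4.64 and 4.73 in CND1-FLAG against 5.92 and 6.22 in Col-0, a ratio of 0.772, which ranked 20 from the lowest. Its local background was 2.35 and 2.38 against 1.62 and 1.66, a ratio of 1.44 that exceeded 97.9% of regions. The low fold at KIN2 in tagged plants thus combined a lower pile-up with a higher background. Each genotype has 1 input, so its 2 background values may be 1 measurement used for both lists. The higher background moved with the genotype, and its part in the result was not tested.

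At RD29A the pile-up at the summit of highest fold was 4.39 and 2.82 with the tag and 6.15 and 5.15 without it. These summits lay at different sites of the gene. The ratio of 0.638 ranked 4 from the lowest, with a background ratio of 0.890, and both depend on that choice of summit. At the site 2359 to 2455 bp after the start, which every list has, the pile-up was 4.39 and 3.42 against 6.15 and 5.46. The background there was 1.64 and 1.62 against 1.67 and 1.71. At this gene the tagged plants thus had the lower pile-up without a higher background. KIN1 had 2.97 and 3.14 against 3.72 and 3.62, a ratio of 0.834, and a background ratio of 1.04 beside a median of 1.05 over all regions. Pile-ups at KIN1, KIN2 and RD29A were thus lower in both tagged libraries than in both Col-0 libraries on this scale. The pile-up is a part of the fold, so this order is no separate evidence. How many of all regions have it on this scale was not counted.

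**Figure D4:**
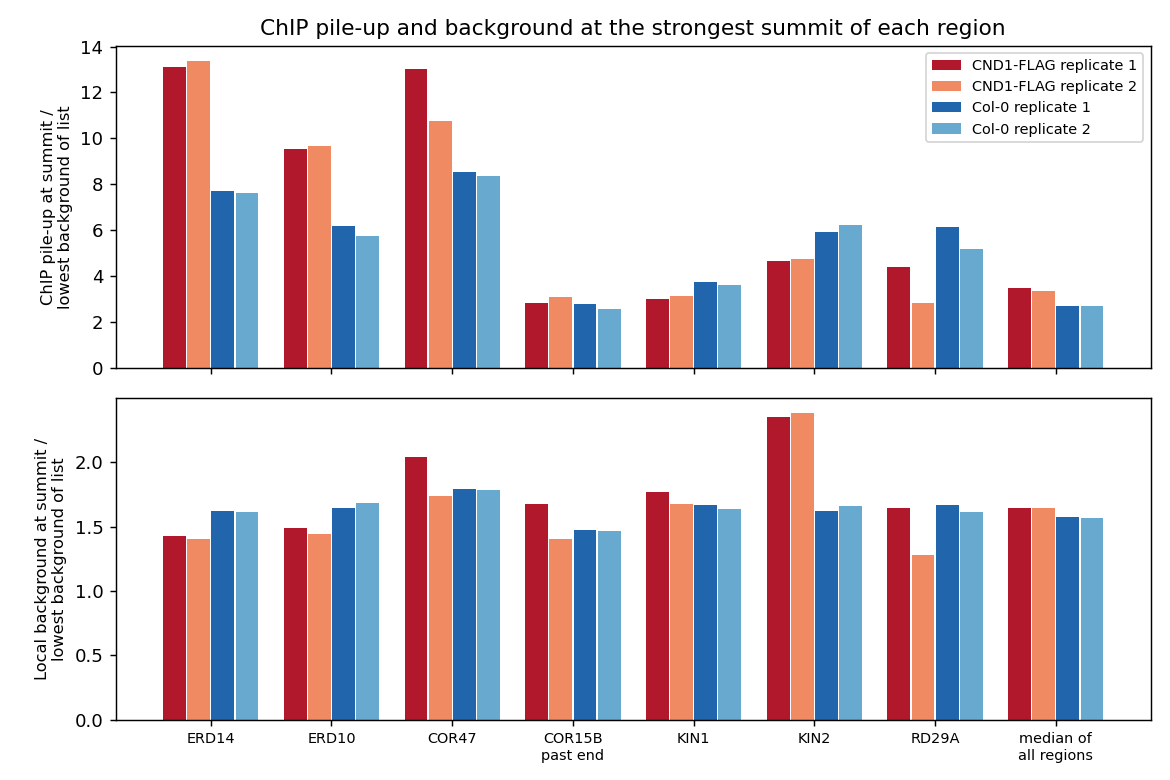
ChIP pile-up (top) and local background (bottom) at the strongest summit of each region, both as multiples of the lowest background in the list, for the 4 libraries; bars are single libraries. KIN2 has a lower pile-up and a higher background in both CND1-FLAG lists (2.35 and 2.38) than in Col-0 (1.62 and 1.66), while ERD14 and ERD10 have higher pile-ups in CND1-FLAG. The 2 backgrounds of a genotype may rest on its 1 input, and at RD29A the strongest summits of the lists lie at different sites.

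The regions most like these in their 4 fold values were found by the Euclidean distance of log2 fold over the 4 lists, taking 2 other genes for each region. Nearest to KIN2 were ABR1 (AT5G64750), an ethylene-response factor family repressor of abscisic acid responses, at a distance of 0.199, and AT2G22880 at 0.296. Nearest to RD29A were another region of ABR1, at 0.165, and MAPKKK14 (AT2G30040), a MAP kinase kinase kinase, at 0.241. The ABR1 regions had 2.18 and 1.87 against 3.70 and 3.50, and 2.61 and 2.09 against 3.58 and 3.52, in CND1-FLAG and Col-0 respectively. Nearest to ERD14 were the small nucleolar RNA U49.1 (AT4G05048) at 0.148 and AT2G23118 at 0.150. ERD10 was nearest to AT1G22190, an AP2/ERF factor, and AT5G62360, KIN1 to CDKG1 (AT5G63370) and AT3G01345, and the region past COR15B to AT1G07627 and UGT78D1 (AT1G30530). With 4 lists and 2426 regions such likeness is a description of fold alone.

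A wider list of 43 genes of the same response was counted in the same way. It holds 6 other dehydrins, 19 effector genes and 18 regulators. The lists assigned peaks to 23 and 18 of these genes in CND1-FLAG and to 17 and 18 in Col-0. The means were 20.5 ± 3.54 and 17.5 ± 0.707 (SD, n = 2 each; exact two-sided permutation test, p = 0.667), a difference within the spread of the tagged pair. The smallest p that 2 against 2 libraries allow is 0.333, so the test could not show a difference, and nothing is concluded from it. The counts also rest on lists of unequal length. With lists of equal length the difference turned to −3 genes (exact permutation p = 0.333). Both CND1-FLAG lists held 15 of the 43 genes and both Col-0 lists 16. All 4 lists shared a region at 11, and 5 had a region in both CND1-FLAG lists and no Col-0 list, beside the shares of nuclear genes given above. Of the 10 genes with an assigned peak in every list, 9 had a ratio of mean CND1-FLAG to mean Col-0 fold above 1, between 1.28 and 3.31, and LTI30 had one below 1. Most regions share this direction: the median ratio over all 2426 regions was 1.20, and 67.8% had both CND1-FLAG folds above both Col-0 folds. Nothing about the wider list is read from the count. The genes described next were picked by their fold in both CND1-FLAG lists, a rule that favours genes high with the tag, so their values are a description. ERD1 (AT5G51070) and ABF2 (AT1G45249), named after their values were seen, were cases the rule could not pick: their folds were 1.79 and 1.55, and 1.33 and 1.36, in the Col-0 lists, with no peak in CND1-FLAG.

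Among the other dehydrins, LEA (AT2G21490) had a fold of 4.45 and 4.68 in CND1-FLAG and 2.62 and 2.26 in Col-0. LTI30 (AT3G50970), a dehydrin strongly induced by cold, had 2.81 and 2.69 against 3.92 and 3.89. Its ratio of 0.704 was the 10 from the lowest of 2426. AT4G39130 had 1.75 and 1.82 with the tag and 1.83 in Col-0 replicate 2, at another region, with no peak in Col-0 replicate 1. XERO1 (AT3G50980) had 2.13 in CND1-FLAG replicate 1 and 1.92 and 1.89 in Col-0, and HIRD11 (AT1G54410) 1.76 in CND1-FLAG replicate 1 and 1.87 and 1.96 in Col-0. Neither had a peak in CND1-FLAG replicate 2, and AT4G38410 had none in any list. These 3 were named after their values were seen, to account for all 6 dehydrins.

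Of the effectors, LEA14 (AT1G01470), a late embryogenesis abundant protein, had the highest values, 6.59 and 6.31 against 4.01 and 3.69. RD26 (AT4G27410), a NAC transcription factor induced by drought, had 2.56 and 2.74 in CND1-FLAG and no peak in Col-0. LEA4-5 (AT5G06760), another late embryogenesis abundant protein, had 2.13 and 2.04 against 1.53 and 1.53.

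CBF1, CBF2 and CBF4 were the regulators that the rule picked. CBF proteins are known to switch on KIN1, KIN2, COR15A and RD29A in the cold. CBF2 (AT4G25470) had a fold of 7.14 and 7.29 in CND1-FLAG and 2.13 and 2.23 in Col-0. CBF1 (AT4G25490) had 6.88 and 6.66 against 2.51 and 2.08, and CBF4 (AT5G51990), which responds to drought, 5.45 and 4.92 against 1.53 and 1.65. The ratios were 3.31, 2.95 and 3.26. CBF3 (AT4G25480), which the rule did not pick, had 2.75 and 2.74 against 1.51 and 1.38, a ratio of 1.90. Any link between the folds at the CBF genes and those at the COR genes was not tested.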

How the data were processed

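The submitters' processing notes name fastp 0.19.11, BWA 0.7.12, MACS2 2.1.0 and the TAIR10 build; each ChIP library has 1 deposited peak list. Which input and which threshold MACS2 was given is not stated. The authors' fold enrichment is a ratio in the signal column, per the file headers. Peak p-values and q-values were deposited as −log10. In its values the deposited score equals 10 times −log10 q, rounded down. Positions, widths and distances in the deposited lists are in bp, counted from 1. Samples were grouped by title.

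The members and lists were chosen with earlier results of these data known. Lines with equal start and end were joined to 1 peak, with the fold of the highest summit, and nuclear peaks that share at least 1 bp to regions. All 10 members and all 43 genes of the wider list were found by identifier in the TAIR10.1 gene table, which was used for names, gene counts and gene bodies; the nuclear gene intervals of the lists lay within those of the table for 100% of 12573 genes. Fragments at a summit were solved from fold, (pile-up + 1) / (background + 1), and the Poisson p-value. Whole fragments within 0.02 came out for 100% of summits in each list, with the ChIP scaled by 0.723 and 0.739 in Col-0 replicates 1 and 2. On simulated data, 1000 of 1000 pile-ups were recovered at each of 2 scales and 1941 of 1941 regions had the right lists. Named were all members, up to 3 genes of each set of the wider list found in both CND1-FLAG lists, by the worse of their ranks by fold, and the 2 genes most like each region of all 4 lists. The genes AT1G20430, AT1G76170, AT2G42520, ERD1, ABF2, CBF3, XERO1, HIRD11 and AT4G38410 were named after their values were seen. Planned promoter motifs and identities of tandem copies were not analysed here. Alternatives tried were a −log10 q minimum of 5, a fold minimum of 2, the top 50% of each list, equal length, reciprocal overlap of 50%, a gene body with 1 kb before its start (the body alone where no list gives the strand), other summit measures, and each library left out. Computations used Python 3.11.15, pandas 2.3.3 and SciPy 1.17.1.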

Additional observations from a re-analysis of the deposited data

How the results depend on the processing

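ERD14 and ERD10 stayed higher in CND1-FLAG, and KIN1, KIN2 and RD29A higher in Col-0, under every alternative that kept their region: the ratios ranged over 1.73 to 1.99, 1.61 to 1.91, 0.760 to 0.843, 0.531 to 0.772 and 0.637 to 0.775. Peak filters and gene assignments leave the fold of a kept region as it is, so they do not test these ratios. Only the other summit measures and the left-out libraries moved them. The ratio of the region past COR15B ranged over 0.931 to 1.19 and turned to 0.931 without CND1-FLAG replicate 2. The median ratio of 0.932 changed side with the genes that remained. A −log10 q minimum of 5, the top 50% and equal length each gave 1.26, where ERD10, ERD14, KIN2 and RD29A remained, and a fold minimum of 2 gave 1.81, where KIN2 was lost. It was 1.06 by gene body with 1 kb or by summits inside genes, which add COR47, and 0.913 to 1.02 with 1 library left out, 1.02 without CND1-FLAG replicate 1. The fold minimum left 3 members in both CND1-FLAG lists and 3 regions in all 4. Without 1 library, 1 to 2 members had a region of the tagged lists alone. The second, without CND1-FLAG replicate 1, was RD29A, through the peak inside RD29B that the list assigns to it. Wider-list genes in both tagged lists numbered 23 by gene body, and 15 to 23 with 1 library left out, 18 without CND1-FLAG replicate 1 and 23 without replicate 2. The wider-list difference of 3 genes was −3 with equal length, and 0.5 to 5.5 with 1 library left out, 0.5 without CND1-FLAG replicate 1. With a replicate block (sign flips within replicate numbers, which the labels do not say pair the plants) its exact p was 1, where 0.5 is the smallest possible. RAB18 had a −log10 q of 2.31 to 2.43 where it was called, and the part of depth in its missing call in CND1-FLAG replicate 2 was not tested.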
